A study of Mus musculus with 12 samples.

Results

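The genes of cholesterol synthesis and sterol regulation were examined in bulk RNA-seq of periocular skin, as 31 genes of the 21247 in the count table. The 31 were chosen by symbol, from the enzymes of the pathway, the proteins that sense sterols, the carriers that move cholesterol inside the cell, and the liver X receptors (LXR) with 3 of their targets, and all 31 were among the 20454 genes tested. The comparison was between 4 ft/ft libraries and 4 labelled ft/ftMyD88-/-, which the study describes as 4 mice of each kind. All came from 6-week-old mice on a BALB/c background. Both groups carry ft, a spontaneous loss-of-function point mutation of filaggrin (*Flg*, which the upper epidermis makes for its cornified layer), from a line described as freed of the matted (ma) mutation of *Tmem79*. The second group is an in-house cross that also lacks MyD88, the adaptor of toll-like and IL-1 family receptors, in all cells and not in skin alone. The question of the comparison was what loss of MyD88 changes in filaggrin-deficient skin. Another 4 libraries labelled wildtype were not analysed here. The labels name total RNA, cells from fixed tissue and Cell Ranger, whereas the study's methods name snap-frozen biopsies, polyA-selected TruSeq libraries, HISAT, tophat2 and HTSeq.

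Several label checks went against the labels or moved with the groups. The targeted gene *Myd88* stood at 41.2 ± 7.29 CPM (counts scaled by edgeR to a common library size) in the group labelled as lacking it and at 30.7 ± 4.74 CPM in ft/ft (SD, n = 4 each), so its transcript was not reduced there (log2 fold change 0.42, edgeR adjusted p = 0.0484), and counts per gene do not show whether an exon was deleted. *Tmem79*, named here after its values were known, was at 16.4 ± 2.10 CPM in the libraries labelled ft/ftMyD88-/- and at 59.2 ± 2.92 in those labelled ft/ft. The mice are described as female, yet *Xist*, expressed from the inactive X chromosome of females, was at 0 to 0.0429 CPM in ft/ft and 34.6 to 66.8 CPM in the libraries labelled ft/ftMyD88-/-, while Y-linked *Ddx3y* was at 54.2 to 73.2 and 0 to 0.482 CPM. Genotype, sex and *Tmem79* level therefore cannot be told apart, and every direction below rests on the labels. Total counts ranged from 15802957 to 29255129 per library. In bulk tissue, fewer cells of a type and less RNA per cell cannot be told apart.

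Cells build cholesterol from acetyl-CoA in the mevalonate arm, which ends in isoprenoid diphosphates, and in the sterol arm, which joins farnesyl units to squalene, closes the rings and trims lanosterol to cholesterol. When sterols are scarce, SCAP carries the transcription factor SREBP-2 from the endoplasmic reticulum to the Golgi, and SREBP-2 then raises transcription of most of these enzymes. When sterols are plentiful, INSIG proteins hold SCAP back, and oxysterols activate LXR, which raises cholesterol export. In skin, keratinocytes make cholesterol for the lipid layers of the barrier, and sebocytes make large amounts of lipid for sebum.

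Promoter windows, each from 250 bases before to 50 bases after an annotated start, are shown for the 2 mevalonate arm genes that were higher, for a pair of sterol arm genes that were lower, and for *Hmgcs1*, whose window alone among those of the members held the sterol regulatory element letters. Sequences are from RefSeq on GRCm38.p6 and read 5′ to 3′ on the gene's strand. Capitals mark the CCAAT box (CCAAT, or ATTGG on the opposite strand) and, in *Hmgcs1*, the sterol regulatory element (TCACNCCAC, searched on both strands), which did not overlap a CCAAT box. Where a gene had several windows, the one with the most matches is shown. The windows are chr13:8885356-8885655 (+) for Idi1, chr3:89454291-89454590 (+) for Pmvk, chr7:143829964-143830263 (+) for Dhcr7, chr19:6067801-6068100 (-) for Tm7sf2 and chr13:119690101-119690400 (+) for Hmgcs1.
Idi1: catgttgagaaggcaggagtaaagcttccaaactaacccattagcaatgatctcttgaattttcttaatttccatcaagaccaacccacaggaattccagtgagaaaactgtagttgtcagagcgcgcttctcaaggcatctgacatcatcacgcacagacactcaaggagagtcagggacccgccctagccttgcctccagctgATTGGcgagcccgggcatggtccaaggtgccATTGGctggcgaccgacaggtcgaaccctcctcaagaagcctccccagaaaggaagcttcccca
Pmvk: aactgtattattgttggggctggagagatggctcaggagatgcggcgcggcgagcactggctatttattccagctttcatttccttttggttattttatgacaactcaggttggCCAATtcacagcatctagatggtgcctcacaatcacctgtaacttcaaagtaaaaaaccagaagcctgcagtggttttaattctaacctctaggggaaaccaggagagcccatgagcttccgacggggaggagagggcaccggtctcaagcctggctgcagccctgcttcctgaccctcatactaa
Dhcr7: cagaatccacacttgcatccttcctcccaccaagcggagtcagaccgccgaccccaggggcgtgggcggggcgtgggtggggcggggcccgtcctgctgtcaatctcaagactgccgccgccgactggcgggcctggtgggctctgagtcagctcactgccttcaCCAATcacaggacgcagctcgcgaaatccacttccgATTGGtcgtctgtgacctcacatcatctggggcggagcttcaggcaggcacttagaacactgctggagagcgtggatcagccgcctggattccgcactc
Tm7sf2: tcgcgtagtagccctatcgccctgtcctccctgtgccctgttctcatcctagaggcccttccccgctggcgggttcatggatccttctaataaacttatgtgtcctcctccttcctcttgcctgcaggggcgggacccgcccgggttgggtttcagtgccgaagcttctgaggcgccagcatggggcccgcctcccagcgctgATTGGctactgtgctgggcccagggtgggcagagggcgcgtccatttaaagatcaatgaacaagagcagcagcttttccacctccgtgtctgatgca
Hmgcs1: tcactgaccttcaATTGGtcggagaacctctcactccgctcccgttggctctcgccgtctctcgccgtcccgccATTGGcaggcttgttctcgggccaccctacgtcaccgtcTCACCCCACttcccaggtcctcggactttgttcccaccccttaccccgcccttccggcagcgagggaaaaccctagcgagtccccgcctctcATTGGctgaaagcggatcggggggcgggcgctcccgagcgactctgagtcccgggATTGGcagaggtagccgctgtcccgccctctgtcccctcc
A window was found for 25 of the 31 members, and none was found for *Fdps*, *Fdft1*, *Sqle*, *Stard4*, *Npc1* and *Abcg1*. The CCAAT box was in the windows of 20 of the 25 members (80.0%), against 41.1% of the 27025 genes with a window. Of the 12161 tested genes with a window, 41.9% held it. It was in 15 of the 16 synthesis enzymes with a window, *Acat2* being the exception. All 3 members that were higher and 8 of the 9 that were lower held it, so it was found on both sides of the comparison. In *Idi1* the matches began 45 and 14 bases before the start, in *Dhcr7* 85 and 49 bases, in *Tm7sf2* 47 bases and in *Pmvk* 136 bases. The sterol regulatory element letters began 137 bases before the start of *Hmgcs1* and were in 1.44% of all genes with a window (1.56% of those tested). The E-box CACGTG was in 6 members (24.0%, against 8.09% of all genes with a window and 10.7% of those tested). These were *Hsd17b7*, *Sc5d*, *Dhcr7* (in another of its 3 windows), *Insig1*, *Scap* and *Abca1*. The first 3 of these were lower in the libraries labelled ft/ftMyD88-/- and the others did not pass the test.

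Of the 31 genes, 3 were higher and 9 were lower in the libraries labelled ft/ftMyD88-/-, by edgeR's quasi-likelihood test with a Benjamini-Hochberg adjusted p under 0.05 over all tested genes, and 19 did not pass. The 3 higher genes were *Pmvk*, *Idi1* and *Nsdhl*. The 9 lower genes were *Lss*, *Tm7sf2*, *Msmo1*, *Hsd17b7*, *Sc5d*, *Dhcr7*, *Insig2*, *Nr1h2* and *Mylip*. The higher share was 9.68% of the members against 10.9% of all tested genes, and the lower share was 29.0% against 12.3%. The groups did not overlap, every library of one lying above every library of the other, in 5 members that were higher (16.1%, against 12.5% of all tested genes) and in 11 that were lower (35.5%, against 14.2%). A called change of at least 1 on the log2 scale, which 6.22% of all tested genes had, was seen in 1 member, *Idi1*. The median log2 fold change was -0.13 over the members and 0.01 over all tested genes. These counts depended on the scaling, here with library size in place of TMM factors (0.922 to 0.954 in ft/ft and 1.04 to 1.09 in the other group). With library size, 8 members were higher and 4 lower (*Tm7sf2*, *Hsd17b7*, *Sc5d* and *Dhcr7*). Of all 20454 tested genes, 4638 were then higher and 1326 lower. The medians were 0.045 over the members and 0.19 over all tested genes.

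**Figure D1:**
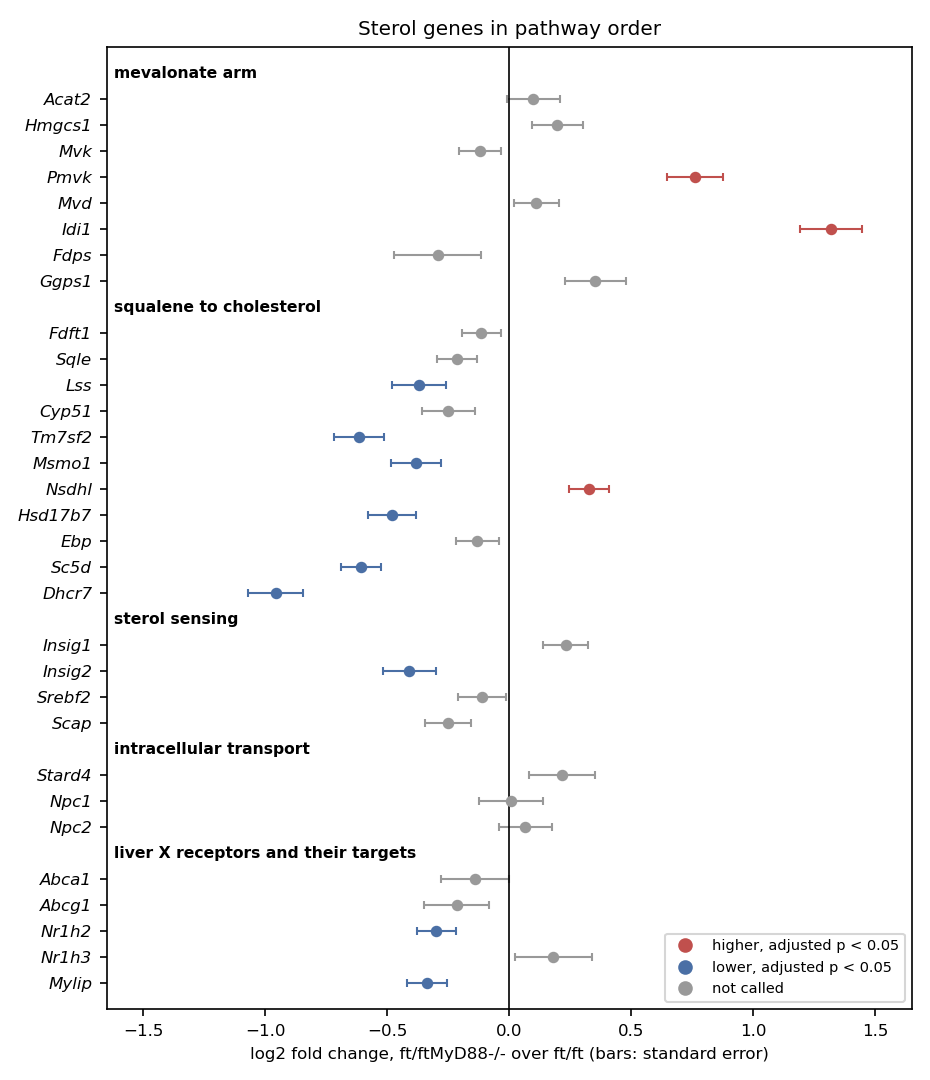
Log2 fold change of each of the 31 sterol genes in pathway order, as the libraries labelled ft/ftMyD88-/- over those labelled ft/ft (points, with bars for the standard error), coloured by the edgeR call. The mevalonate arm holds the 2 largest increases, Idi1 at 1.32 and Pmvk at 0.76, and 10 of the 11 genes from squalene to cholesterol lie below 0, down to Dhcr7 at -0.96.

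The 2 arms of the pathway gave most of their calls in opposite directions. In the mevalonate arm, 2 of 8 genes (25.0%, *Idi1* and *Pmvk*) were higher, none lower and 6 not called, with a median log2 fold change of 0.15. In the sterol arm 1 of 11 was higher (9.09%) and 6 were lower (54.5%), with a median of -0.37. Of all tested genes, 10.9% were higher and 12.3% lower, with a median of 0.01. The signs of the medians of the 2 arms held with library size scaling, at 0.33 and -0.19 (0.19 over all tested genes). The mevalonate arm median was 0.07 without replicate 2 labelled ft/ftMyD88-/-. Summed over its 8 genes and scaled by TMM, the mevalonate arm stood at 1149 to 1215 CPM in the libraries labelled ft/ft and at 1402 to 1779 in those labelled ft/ftMyD88-/-. Summed over its 11 genes, the sterol arm stood at 3129 to 3246 and at 2238 to 2802 CPM. On this scale neither sum overlapped between the groups. A few genes weighed heavily in the mevalonate arm sum. Mean CPM went from 105.6 to 263.6 for *Idi1*, from 111.1 to 188.3 for *Pmvk* and from 524.1 to 600.5 for *Hmgcs1*, which was not called. In that arm 2 genes had negative log2 fold changes. With library size scaling the mevalonate arm sums still lay apart (1087 to 1158 and 1455 to 1907), whereas those of the sterol arm overlapped (2956 to 3070 and 2323 to 3004). Over all 19 synthesis enzymes together the sums did overlap, at 4278 to 4462 and 3639 to 4581 CPM.

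The enzyme *Idi1*, which isomerises isopentenyl diphosphate to its reactive partner dimethylallyl diphosphate, showed the largest change of the 31 genes. It was at 130.3, 92.5, 97.2 and 102 CPM in replicates 1 to 4 labelled ft/ft and at 222.5, 305, 266 and 259.9 CPM in those labelled ft/ftMyD88-/-. The lowest of the second group lay well above the highest of the first. The gene rose 2.50-fold (log2 fold change 1.32, SE 0.127, edgeR adjusted p = 6.16e-05), and leaving out any 1 library gave log2 fold changes of 1.25 to 1.44. Of the 50-base stretches of its transcripts, 25.3% also occur in transcripts of other annotated genes, none of which was in the count table, so reads could have been shared with them. *Pmvk*, which adds the phosphate that turns mevalonate phosphate into its diphosphate, shares no such stretch with another gene. It was at 112.4, 109.4, 106 and 116.8 CPM in ft/ft and at 197.8, 220.8, 147.6 and 187 CPM in the libraries labelled ft/ftMyD88-/-. These groups did not overlap either. *Pmvk* rose 1.69-fold (log2 fold change 0.76, SE 0.113, edgeR adjusted p = 0.000786).

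The genes on either side of these 2 did not pass the test. *Acat2*, the cytosolic thiolase that opens the pathway, had a log2 fold change of 0.10 (SE 0.108), and 39.1% of its 50-base stretches are shared with *Acat3*. *Hmgcs1*, which makes HMG-CoA, was at 511 to 547 CPM in ft/ft and at 592, 712.5, 588 and 509.6 CPM in the libraries labelled ft/ftMyD88-/-, where replicates 1 to 3 lay above every ft/ft library and replicate 4 below every one (edgeR adjusted p = 0.20). *Mvk*, the mevalonate kinase just before *Pmvk*, was at 88.2 ± 6.19 and 81.1 ± 5.41 CPM, and *Mvd*, the decarboxylase just before *Idi1*, at 114 ± 4.89 and 123 ± 13.6 CPM (SD, n = 4 each). Their log2 fold changes were -0.12 (SE 0.0852) and 0.11 (SE 0.0918), and the libraries of the 2 groups overlapped in both. The increases of *Pmvk* and *Idi1* thus stood next to steps without a call.

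Downstream of *Idi1* the arm branches. *Ggps1*, which makes the geranylgeranyl diphosphate used to anchor proteins in membranes, was at 19.97, 13.3, 17.4 and 16.8 CPM in ft/ft and at 23.4, 20.2, 20.96 and 21.6 CPM in the libraries labelled ft/ftMyD88-/-. The groups did not overlap, although 19.97 and 20.2 lay close together, and the edgeR adjusted p was 0.0586 (log2 fold change 0.35, SE 0.124), or 0.0266 without ft/ft replicate 1. *Fdps*, which makes farnesyl diphosphate, was the lowest of the 31 genes at 2.43 to 4.12 CPM, from as few as 41 counts in a library. Its log2 fold change of -0.29 (SE 0.178) did not pass the test. The annotation places 26.7% of its exon bases in a gene model on the same strand, Gm43738, and 26.2% of its 50-base stretches occur in other genes, so its count is uncertain.

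**Figure D2:**
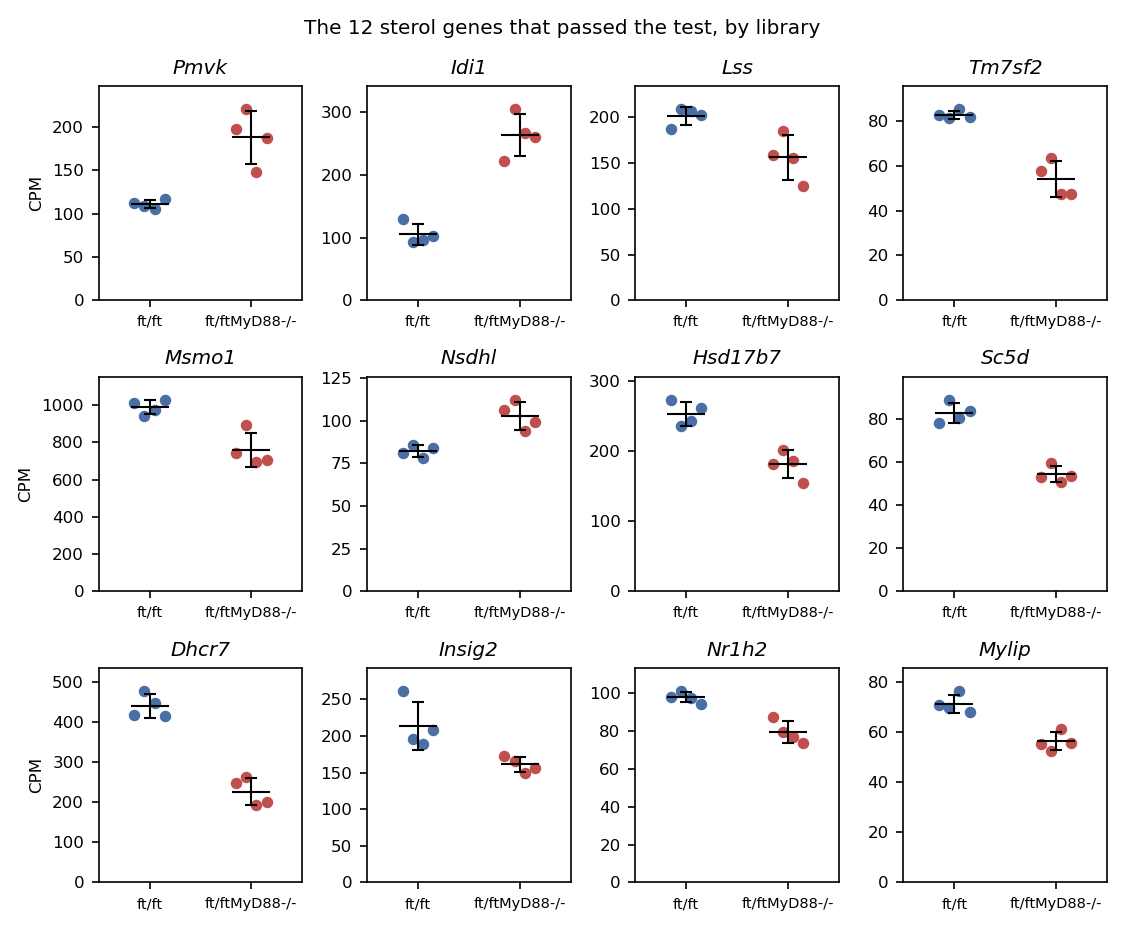
CPM in each library (points) for the 12 sterol genes that passed the test, with the mean and SD of each group (bars, n = 4) on axes that start at 0. In all 12 panels the points labelled ft/ft and those labelled ft/ftMyD88-/- do not overlap, with Pmvk, Idi1 and Nsdhl higher and the other 9 lower in the second group.

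In the sterol arm, the last enzyme showed the largest decrease. *Dhcr7*, which reduces dehydrocholesterol to cholesterol and whose substrate is also the precursor of vitamin D in skin, was at 416.1, 476.5, 447.5 and 414.9 CPM in ft/ft and at 247, 263.1, 193.7 and 200 CPM in the libraries labelled ft/ftMyD88-/-. The highest of the second group was far below the lowest of the first. *Dhcr7* fell by 48.5% (log2 fold change -0.96, SE 0.113, edgeR adjusted p = 0.000209), with log2 fold changes of -1.03 to -0.88 when any 1 library was left out. The preceding desaturase, *Sc5d*, was at 78.2, 88.8, 80.6 and 83.9 CPM in ft/ft and at 53.2, 59.6, 50.9 and 53.6 CPM in the other group. It fell by 34.5% without overlap (log2 fold change -0.61, SE 0.0828, edgeR adjusted p = 0.000477).

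The enzymes that trim lanosterol divided among themselves. *Tm7sf2*, a sterol reductase that follows the lanosterol demethylase, was at 82.6, 81.1, 85.2 and 81.6 CPM in ft/ft and at 57.7, 63.3, 47.2 and 47.3 CPM in the libraries labelled ft/ftMyD88-/-. It fell by 34.7% (log2 fold change -0.62, SE 0.103, edgeR adjusted p = 0.00153). It shares 12.1% of its exon bases with *Vps51* on the same strand. The 3 enzymes that together remove the methyl groups at carbon 4 of the sterol ring did not all move in the same direction. *Msmo1*, the monooxygenase of that reaction, was at 1011, 942, 974 and 1027 CPM in ft/ft and at 741, 892, 695 and 707 CPM in the libraries labelled ft/ftMyD88-/-, and fell by 23.2% (edgeR adjusted p = 0.0182, and 0.0592 without ft/ft replicate 4 or 0.0529 without replicate 3 labelled ft/ftMyD88-/-). *Hsd17b7*, the ketosteroid reductase, was at 273.5, 236, 242.9 and 261.6 CPM and at 182.5, 202.4, 187 and 154.3 CPM, and fell by 28.4% (edgeR adjusted p = 0.0047). *Nsdhl*, the dehydrogenase acting between them, was instead higher. It was at 80.9, 85.8, 78.1 and 83.8 CPM in ft/ft and at 106.6, 112, 93.8 and 99.3 CPM in the libraries labelled ft/ftMyD88-/-, without overlap (log2 fold change 0.33, SE 0.0831, edgeR adjusted p = 0.0147). *Nsdhl* lies on the X chromosome, and the part that the difference in *Xist* between the groups has in its increase was not tested. *Ebp*, the sterol isomerase and the only other X-linked member, was at 69.5 ± 3.91 and 63.4 ± 5.59 CPM (SD, n = 4 each) with overlapping libraries.

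Of the steps from farnesyl diphosphate to lanosterol and its demethylation, 1 passed the test. *Lss*, which closes squalene epoxide into lanosterol, was at 187.4, 209, 207.3 and 202.7 CPM in ft/ft and at 158.7, 184.9, 155.5 and 125.1 CPM in the libraries labelled ft/ftMyD88-/-. It fell by 22.6% (log2 fold change -0.37, SE 0.111, edgeR adjusted p = 0.0306). This call was lost in 6 of the 8 fits that left out a library (edgeR adjusted p of 0.0553 to 0.076). It held only without ft/ft replicate 1 (0.0371) and without replicate 2 labelled ft/ftMyD88-/- (0.0143). *Sqle*, the squalene epoxidase, was at 251.9 to 276.7 CPM in ft/ft and at 216.8 to 242.5 CPM in the other group, without overlap, and missed the threshold (log2 fold change -0.21, SE 0.0819, edgeR adjusted p = 0.0785). *Fdft1*, the squalene synthase, was at 175 ± 4.38 and 162 ± 10.9 CPM and *Cyp51*, the lanosterol demethylase, at 542 ± 46.0 and 456 ± 57.0 CPM (SD, n = 4 each), with overlapping libraries in both. Of the fits that left out a library, *Cyp51* passed the test in the 1 without replicate 2 labelled ft/ftMyD88-/- (edgeR adjusted p = 0.0399). *Fdft1* overlaps *Ctsb* on the opposite strand over 18.3% of its exon bases, and for the counting the methods name HTSeq's default parameters without a strand setting.

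**Figure D3:**
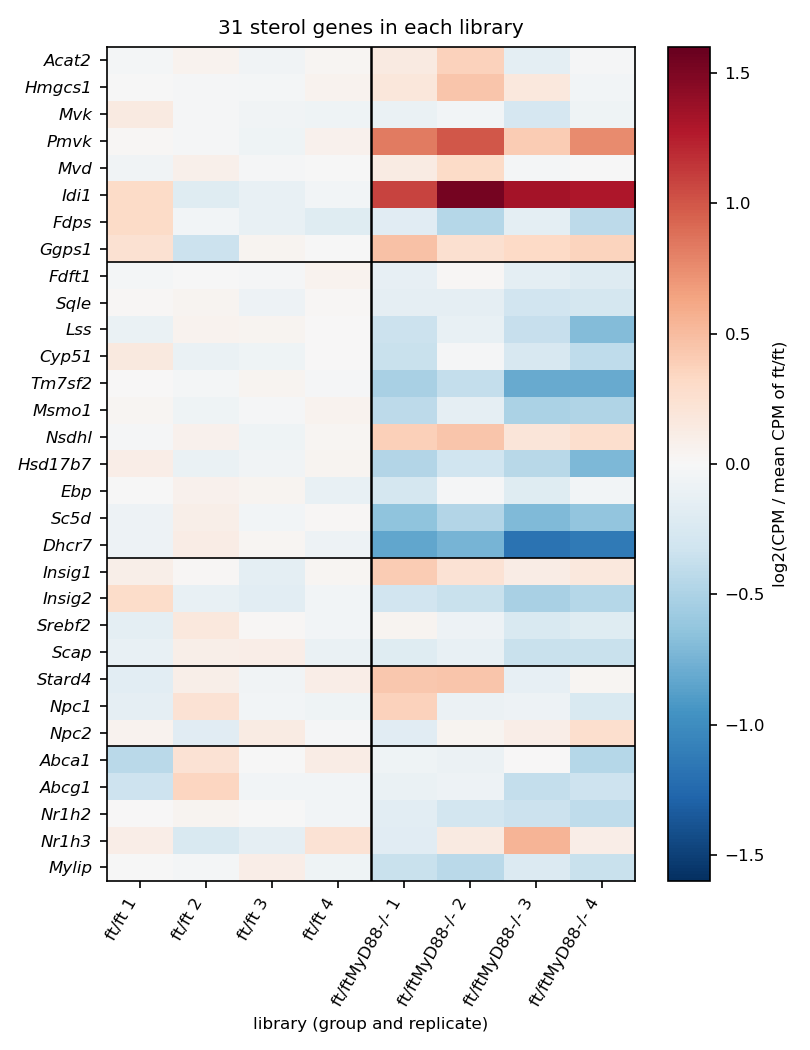
Log2 ratio of each library's CPM to the mean CPM of the 4 libraries labelled ft/ft (colour, red above and blue below 0) for the 31 sterol genes (rows) in 8 libraries (columns). The strongest red in the 4 columns labelled ft/ftMyD88-/- is in Idi1 and Pmvk and the strongest blue in Dhcr7, with other genes, such as Nsdhl and Sc5d, in weaker shades of 1 colour over those 4 columns.

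Per kilobase of exon the 19 enzymes spanned a wide range of levels. Exon length was that of the merged exons of all annotated transcripts of a gene, so ranks between genes depend on the annotation. Mean CPM per kilobase in ft/ft was highest for *Msmo1* (161), *Cyp51* (123) and *Hmgcs1* (114). It was lowest for *Fdps* (0.792), whose count is uncertain, and *Ggps1* (3.57). In the libraries labelled ft/ftMyD88-/-, *Hmgcs1* (131) stood above *Msmo1* (124) and *Cyp51* (103). *Dhcr7* went from 75.4 to 38.8 and *Idi1* from 30.2 to 75.3 on that scale.

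The sensing machinery changed little, apart from a contrast between the 2 INSIG genes. *Insig2*, which retains the SCAP complex in the endoplasmic reticulum, was at 261.3, 196.3, 189.6 and 208.3 CPM in ft/ft and at 172.3, 166.4, 149.4 and 155.8 CPM in the libraries labelled ft/ftMyD88-/-. It fell by 24.7% without overlap (log2 fold change -0.41, SE 0.108, edgeR adjusted p = 0.0175). *Insig1*, its relative and itself a target of SREBP-2, was at 167.3, 159.7, 141.7 and 160.9 CPM and at 208.1, 184, 170.2 and 176.7 CPM. The *Insig1* groups did not overlap either, in the opposite direction, but it did not pass the test (log2 fold change 0.23, SE 0.0916, edgeR adjusted p = 0.0872). The ratio of *Insig1* to *Insig2* per kilobase of exon was 0.719 to 0.914 in ft/ft and 1.24 to 1.36 in the libraries labelled ft/ftMyD88-/-, so *Insig2* was the more abundant in every library of the first group and *Insig1* in every library of the second. *Srebf2*, which encodes SREBP-2, was at 234.2 to 293.2 and 220.0 to 270.6 CPM, with a log2 fold change of -0.11 (SE 0.0987). *Scap*, the escort of SREBP-2, was at 130.6 to 151.7 and 110.2 to 130.3 CPM, which left a gap of under 1 CPM between the groups, and did not pass the test (log2 fold change -0.25, edgeR adjusted p = 0.0674).

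None of the 3 genes of intracellular transport passed the test, and all 3 overlapped between the groups. *Npc1* and *Npc2*, which pass cholesterol out of lysosomes, had log2 fold changes of 0.01 (SE 0.131) and 0.06 (SE 0.108), and the sign turned for *Npc1* in 4 of the 8 fits that left out a library and for *Npc2* in 1, to -0.001. *Stard4*, a soluble sterol carrier, was at 346.9 to 418.9 CPM in ft/ft and at 524.1, 530.3, 354.7 and 396 CPM in the libraries labelled ft/ftMyD88-/-, where replicates 1 and 2 stood above all ft/ft libraries and replicates 3 and 4 among them. Its log2 fold change was 0.22 (SE 0.134, edgeR adjusted p = 0.272).

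Of the LXR genes, 2 of 5 were lower and none higher, while 12.3% of all tested genes were lower and 10.9% higher. Both calls were lost with library size scaling (edgeR adjusted p = 0.27 for *Nr1h2* and 0.166 for *Mylip*). *Nr1h2*, which encodes the widely expressed LXR beta, was at 97.9, 101.3, 97.8 and 94.7 CPM in ft/ft and at 87.3, 79.9, 76.9 and 73.96 CPM in the libraries labelled ft/ftMyD88-/-. It fell by 18.8% (log2 fold change -0.30, SE 0.0799, edgeR adjusted p = 0.0179), a call lost without replicate 3 or 4 of the second group (0.051 and 0.0572). *Mylip*, an LXR target that marks lipoprotein receptors for degradation, was at 70.9, 69.8, 76.5 and 68.2 CPM and at 55.5, 52.7, 61.5 and 55.9 CPM, and fell by 20.9% (log2 fold change -0.34, SE 0.0809, edgeR adjusted p = 0.0105). Neither gene overlapped between the groups. *Nr1h3*, which encodes LXR alpha, was lower in abundance, at 13.3 to 18.4 and 13.8 to 22.9 CPM, with a log2 fold change of 0.18 (SE 0.158). Per kilobase of exon, *Nr1h2* stood above *Nr1h3* in every library, by ratios of 3.87 to 5.74 in ft/ft and 2.53 to 4.76 in the others. The exporters *Abca1* and *Abcg1* did not pass the test, at 135 ± 25.0 and 122 ± 16.3 CPM and at 38.9 ± 7.65 and 33.5 ± 3.55 CPM (SD, n = 4 each), and their per-kilobase ratio was 2.26 to 2.75 in ft/ft and 2.25 to 3.18 in the libraries labelled ft/ftMyD88-/-. Macrophages express both LXR genes and exporters. Of 10 macrophage markers, 4 were higher and none lower, beside 10.9% and 12.3% of all tested genes. The marker sums were 573.5 to 760.3 CPM in ft/ft and 802.6 to 1116 CPM in the libraries labelled ft/ftMyD88-/-. The 4 that rose were *Lyz2*, a myeloid lysozyme (259.8 ± 13.5 and 514 ± 117 CPM, SD, n = 4 each), *Msr1*, a scavenger receptor (log2 fold change 1.37), *Aif1* (1.26) and the complement gene *C1qa* (0.51). The other 6, *Adgre1*, *Cd68*, *Mrc1*, *Csf1r*, *Cd163* and *C1qb*, had log2 fold changes of -0.21 to 0.48. Their part in the LXR values was not tested.

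Related genes outside the 31 were counted in lists of their own, beside 10.9% of all tested genes higher and 12.3% lower. Of 21 other sterol genes tested, 2 were higher and 6 lower, with a median log2 fold change of -0.13. The 2 that were higher were *Cyp7b1*, an oxysterol hydroxylase, at 3.20 ± 0.419 CPM in ft/ft and 8.02 ± 3.21 in the libraries labelled ft/ftMyD88-/- (SD, n = 4 each, log2 fold change 1.33, edgeR adjusted p = 0.00386) and *Nus1*, a subunit of the enzyme that makes dolichol from farnesyl diphosphate, at 63.7 ± 7.30 and 104 ± 12.7 CPM (log2 fold change 0.71, edgeR adjusted p = 0.000964). *Faxdc2* was not analysed here.

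Of 14 fatty acid synthesis genes under SREBP-1, 1 was higher and 4 lower, with a median log2 fold change of -0.20. The elongase *Elovl6* went from 790.3 ± 114 CPM in ft/ft to 255.5 ± 48.3 in the libraries labelled ft/ftMyD88-/- (log2 fold change -1.63, SE 0.152, edgeR adjusted p = 5.25e-05), a larger decrease than that of any sterol gene of the 31. The desaturase *Scd1* had a log2 fold change of -0.66 (edgeR adjusted p = 0.00842), while the desaturase *Fads2* had one of 0.62 (edgeR adjusted p = 0.0324) with overlapping libraries. Of 4 other LXR targets, 3 were lower and 1 higher. *Lpcat3*, which puts polyunsaturated chains into phospholipids, was at 322 ± 18.3 and 164 ± 27.8 CPM (SD, n = 4 each, log2 fold change -0.98, edgeR adjusted p = 0.000227), and *Pltp*, a phospholipid transfer protein, had a log2 fold change of -0.56 (edgeR adjusted p = 0.00657). *Smpdl3a*, a secreted phosphodiesterase, was higher, at 0.52 (edgeR adjusted p = 0.00311). The LXR targets in the 2 lists therefore gave calls in both directions.

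**Figure D4:**
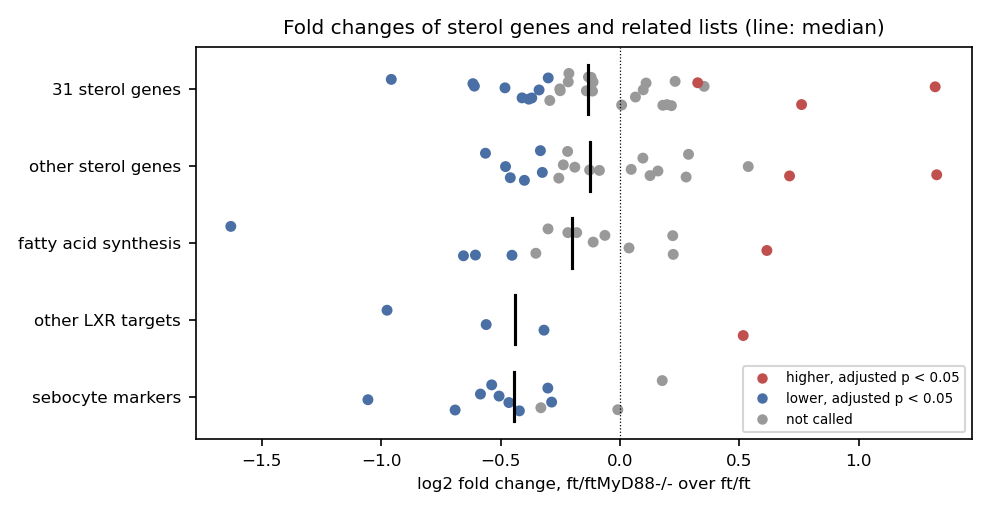
Log2 fold change of each tested gene (points, spread vertically for legibility, coloured by the edgeR call) in the 31 sterol genes, 21 other sterol genes, 14 fatty acid synthesis genes, 4 other LXR targets and 12 sebocyte markers, with a line at each median. The medians lie at -0.13, -0.13, -0.20, -0.44 and -0.44, and the sterol genes spread on both sides of 0.

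Markers of cell types that make sterols moved with the groups, while 10.9% of all tested genes were higher and 12.3% lower. Of 12 sebocyte markers, 9 were lower and none higher (median log2 fold change -0.44), and their summed level was 9179 to 10650 CPM in ft/ft and 7165 to 9118 CPM in the libraries labelled ft/ftMyD88-/-. These sums did not overlap with TMM scaling and did with library size scaling (8688 to 10010 and 7462 to 9774). Basal keratinocyte markers were lower in 5 of 7 (median -0.59), with sums of 14020 to 17180 CPM in ft/ft and 9838 to 12060 CPM in the libraries labelled ft/ftMyD88-/-. Differentiated keratinocyte markers were lower in 4 and higher in 1 of 8 (median -0.45), with sums of 17440 to 22710 and 12580 to 15830 CPM. With library size scaling the sums of both lists still lay apart (13380 to 16150 and 10400 to 12930 for basal, 16640 to 21350 and 13490 to 16430 for differentiated). Proliferation markers were higher in 6 of 6, at 132.8 to 208.7 and 254.4 to 320.4 CPM, and none of 8 adipocyte markers passed the test. Skeletal muscle markers were lower in 7 of 8, with sums of 7856 to 10820 and 3064 to 5880 CPM, and anagen hair follicle markers were higher in 3 of 7, with sums that overlapped (999.8 to 1625 and 1361 to 8580 CPM). No marker was at 0 in any library. The part of these cell types in the sterol gene values was not tested.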

How the data were processed

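The table of the 8 libraries holds raw counts per gene as deposited by the authors, with no normalization. Their methods name mapping to GRCm38.p6 (HISAT, tophat2) and HTSeq with default parameters. Aligner versions and the annotation release are not given in the sources used here, and no strand setting is named beyond the default. The submitters' processing notes also name Cell Ranger and FastQC. Columns were matched to samples by the library names in the labels. The 4 libraries labelled wildtype were not analysed here.

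A gene needed 10 counts in all libraries together, which 20454 of 21247 had, and was tested in R 4.3.3 with edgeR 4.0.16 (TMM, glmQLFit with robust = TRUE, glmQLFTest, two-sided, no covariate), with Benjamini-Hochberg adjustment over all tested genes at 0.05. CPM are edgeR's, by the TMM-scaled library size. Standard errors came from the log2 fold change and F. Exon length, overlaps and shared 50-base stretches (the read length) were computed from GENCODE M21, and coordinates from RefSeq. Total counts were 15802957 to 29255129 per library, every member but *Fdps* had at least 254 counts in each library. The study's methods name no molecular identifiers. No library was a duplicate of another in its group, since the smallest chi-square over its degrees of freedom, between ft/ft replicates 3 and 4, was 15.1. The edgeR fit was tested on simulated data (20205 genes, 200 changed 2-fold): it called 171 of the 200, all 200 had the right sign, and 2 unchanged genes were called. The changed genes were drawn from those with higher counts, as many raised as lowered, and all genes had the same dispersion. The simulation therefore could not test changes under 2-fold or the dependence on scaling.

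The 31 members and all lists were chosen with earlier results of these data known. All 31 are named, with label checks and, from each pathway list, the at most 3 called genes with the largest absolute log2 fold change. 1 gene that the rule names is not reported here. *Tmem79*, *Acat3*, the macrophage markers, *Faxdc2* and genes overlapping a member were named outside that rule, after values were seen. Alternatives were DESeq2 1.42.0, RLE, library size only, filterByExpr, no filter, limma 3.58.1 voom, the replicate number as a block, and each library left out in turn.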

Additional observations from a re-analysis of the deposited data

How the results depend on the processing

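Of the 12 members called, 7 (*Pmvk*, *Idi1*, *Nsdhl*, *Tm7sf2*, *Hsd17b7*, *Sc5d* and *Dhcr7*) were called under all 15 alternatives, and none of the 12 changed sign under any. The call of *Lss* was lost under 7 alternatives, those of *Msmo1* and *Nr1h2* under 3 each, and those of *Insig2* and *Mylip* under library size only. Library size only, which gives each library its total and no TMM factor, moved most counts: members higher went from 3 to 8 and lower from 9 to 4, and all tested genes from 2239 to 4638 higher and from 2525 to 1326 lower. Under it the log2 fold changes of *Mvk* (0.056), *Fdft1* (0.062), *Ebp* (0.045), *Srebf2* (0.063) and *Abca1* (0.037) turned positive. DESeq2 called 5 members higher (adding *Ggps1* and *Insig1*) and 10 lower (adding *Sqle*). *Npc1*, near 0, turned to -0.003 with voom and to -0.005 with the replicate block. Leaving out each library gave 3 to 4 members higher and 6 to 10 lower (6 without replicate 3 labelled ft/ftMyD88-/-), 1464 to 2260 of all tested genes higher (1464 without ft/ft replicate 4), -0.13 to 0.096 for *Npc1* and -0.001 to 0.143 for *Npc2*. The median of the mevalonate arm moved from 0.153 to 0.074 without replicate 2 labelled ft/ftMyD88-/-, and that of the LXR genes from -0.216 to -0.081 without ft/ft replicate 2.

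Replicate numbers are shared between the groups, but same-numbered libraries did not deviate together (correlations of -0.283, 0.048, 0.078 and -0.086). With the replicate block, 3 members were higher and 9 lower, and 1895 and 2144 of all tested genes; it changed no member's call.

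Sex, the *Tmem79* level, inflammation of the skin and the group labels cannot be told apart in these 8 libraries. *Fdps* had the fewest counts of the members, as few as 41 in a library.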
